A study of Homo sapiens with 12 samples.

Results

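The genes of the proteasome, its regulators and its assembly chaperones were followed through 12 total RNA libraries of HCT116, a human colon carcinoma line. Members were all rows of the deposited gene table whose symbol is PSM, then 1 letter from A to G, then a number. This gave 48 of 57134 genes. They comprise 19 genes of the core (8 PSMA and 11 PSMB), 20 of the regulatory particle (6 PSMC and 14 PSMD) and 9 others (PSME1 to PSME4, PSMF1 and PSMG1 to PSMG4). All libraries were made from HCT116 cells with MATQ-seq, which amplifies total RNA and is not limited to polyadenylated transcripts. Libraries called DASHed had been through scDASH, a step that uses Cas9 to cut molecules copied from ribosomal RNA (rRNA), and untreated libraries had not. The groups were 4 DASHed and 4 untreated single cells, sorted by FACS, and 2 DASHed and 2 untreated mini-bulk libraries. The labels name no drug, genotype or separate culture, and they do not say how many cells a mini-bulk library held, so p-values measure only the spread between these libraries, which may be technical.

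The proteasome is the main protease of the cytosol and nucleus. It degrades proteins that carry ubiquitin chains, and dividing carcinoma cells depend on it. The core is a stack of rings. The outer α rings (PSMA) form the gate, and the inner β rings (PSMB) hold the proteolytic sites. The regulatory particle caps the core. Its ATPases (PSMC) unfold the substrate and push it through the gate, and some of its other subunits (PSMD) bind or remove ubiquitin. PSMD5, PSMD9 and PSMD10 carry PSMD symbols but are assembly chaperones of the regulatory particle. The PSME proteins are alternative caps, PSMF1 binds and inhibits the core, and the PSMG proteins are chaperones that assemble the α ring.

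Members differ in the base composition of their transcripts, and the results below are read against it. The median GC content of a gene's transcripts in the GENCODE v29 annotation (GRCh38) ran from 37.8% in PSMC6 to 60.1% in PSMB10 among the 42 members that could be tested in mini-bulk. Its median was 48.3%, against 51.2% over all genes tested. The median was 40.5% for the α genes and 52.0% for the β genes. Members that share at least 10% of exonic bases with other genes, or of 31-base words with genes that have counts, were left out here. Within PSMA, PSMC and PSMD, the tested members lowest and highest in GC were then taken. The lines below show 90 bases from the middle of their coding sequences. They are read 5′ to 3′ on the coding strand, and capitals mark G and C.
PSMA3: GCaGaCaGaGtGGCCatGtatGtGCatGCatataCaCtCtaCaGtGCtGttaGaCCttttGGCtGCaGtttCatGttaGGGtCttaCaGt
PSMA7: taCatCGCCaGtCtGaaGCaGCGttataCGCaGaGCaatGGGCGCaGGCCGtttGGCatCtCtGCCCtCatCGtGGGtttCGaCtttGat
PSMC6: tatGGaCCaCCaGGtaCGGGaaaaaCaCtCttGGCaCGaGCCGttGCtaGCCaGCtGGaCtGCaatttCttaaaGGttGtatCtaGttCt
PSMC3: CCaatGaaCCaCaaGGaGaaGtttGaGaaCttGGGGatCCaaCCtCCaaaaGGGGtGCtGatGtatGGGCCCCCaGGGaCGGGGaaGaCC
PSMD12: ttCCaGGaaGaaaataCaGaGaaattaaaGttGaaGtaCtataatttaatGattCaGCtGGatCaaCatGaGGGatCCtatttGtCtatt
PSMD3: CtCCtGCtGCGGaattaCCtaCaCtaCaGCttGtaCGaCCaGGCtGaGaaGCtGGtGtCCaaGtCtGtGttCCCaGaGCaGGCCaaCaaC
In these stretches 41 of 90 bases are G or C in PSMA3 and 49 in PSMA7, 43 in PSMC6 and 50 in PSMC3, and 28 in PSMD12 and 49 in PSMD3. Both ATPase stretches hold the codons of the Walker A loop, which binds ATP. PSMC6 writes it as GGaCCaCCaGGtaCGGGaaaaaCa and PSMC3 as GGGCCCCCaGGGaCGGGGaaGaCC. Both runs encode the same residues and differ at 6 of 24 bases, with 13 G or C in PSMC6 and 19 in PSMC3. PSMA3 lies on chromosome 14 (58244831 to 58272012), PSMA7 on chromosome 20 (62136735 to 62143440), PSMC6 on chromosome 14 (52707172 to 52728587), PSMC3 on chromosome 11 (47418769 to 47426473), PSMD12 on chromosome 17 (67337916 to 67366627) and PSMD3 on chromosome 17 (39980797 to 39997960), all in GRCh38.

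Total estimated counts were 837614 to 1087711 in DASHed and 5803180 to 6026584 in untreated mini-bulk, and 1018874 to 1573651 in DASHed and 5545355 to 6008358 in untreated single cells. rRNA, with genes that lie inside it, took 38.0 to 42.7% of counts in DASHed and 82.2 to 85.8% in untreated mini-bulk, and 29.9 to 38.4% and 72.9 to 81.3% in the single cells. The epithelial keratin genes KRT8, KRT18 and KRT19 and CLDN4 had counts in all 12 libraries. Of the further epithelial markers, EPCAM had counts in 11, CDH1 in 10 and CEACAM5 in 2. EPCAM was at 0 in DASHed cell 2. CDH1 was low in single cells, at 0, 0, 1 and 2.78 counts in DASHed and 1, 2, 4 and 21.1 in untreated cells. Of 4 leukocyte markers CD3E and LYZ were at 0 in all libraries, and PTPRC and CD68 had counts in 7 and 6. Of 2 endothelial markers VWF was at 0 and PECAM1 had counts in 8, and of 4 fibroblast markers COL3A1 was at 0 and COL1A1, COL1A2 and DCN had counts in 7 to 9. No count of a leukocyte, endothelial or fibroblast marker was above 29, and the part of such counts in the results was not tested. Same-numbered single-cell libraries, 1 DASHed and 1 untreated, resembled each other far more than libraries of different numbers. What the number marks is not stated, so it is unknown whether the 8 single-cell libraries came from 8 cells.

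Counts were seen for 45 of the 48 members. PSMA8, the α subunit of the testis, PSMB8, an interferon-inducible catalytic subunit, and PSMB11, the catalytic subunit of the thymus, were at 0 in all 12 libraries. The other interferon-inducible catalytic subunits were low. PSMB9 had 5.13 and 1 estimated counts in untreated mini-bulk, 2 and 0 in DASHed mini-bulk, and 1.01 to 4.68 in the 8 single cells. PSMB10 had 4.21 and 21.9 counts in untreated mini-bulk and 8.58 and 22.1 in DASHed mini-bulk, and it was at 0 in both libraries of cell 2. PSMB10 shares 34.8% and PSMB8 20.6% of exonic bases with other genes, so the split of their reads is uncertain. The 3 catalytic subunits that the interferon-inducible ones replace were all present. PSMB5, PSMB6 and PSMB7 stood at 14.9 ± 0.161, 8.39 ± 0.974 and 17.7 ± 0.87 CPM per kb (level per length, CPM being counts scaled to the library total, mean ± SD, n = 2) in untreated mini-bulk, while PSMB10 stood at 1.84 ± 1.79 and PSMB9 at 0.651 ± 0.61. The highest of the latter pair, PSMB10 in replicate 2, stayed below the lowest of the former in the plot of level per length.

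PSME3, a nuclear activator cap, had the highest level per length of all members in untreated mini-bulk, at 49.6 ± 3.82 CPM per kb (SD, n = 2). It was followed by the α gene PSMA4 at 40.0 ± 3.09 and the ATPase gene PSMC4 at 35.8 ± 5.38, which overlap each other within their spread. PSMD3, a subunit of the lid of the regulatory particle, at 19.1 ± 0.0969 and PSMD2, which docks ubiquitin shuttles, at 18.7 ± 2.14 were next and did not differ beyond their spread. PSME3 also ranked first when the length was taken over all annotated transcripts, but the order below it changed. PSMD11 then moved from rank 11 to 2, PSMD2 from 5 to 3 and PSMF1 from 27 to 5. PSMA4 moved from 2 to 4, PSMC4 from 3 to 6 and PSMD3 from 4 to 9. At the low end were PSMD9, an assembly chaperone of the regulatory particle, at 1.22 ± 0.0299 and PSME1, an interferon-inducible activator, at 1.17 ± 0.5. Among the chaperones of the α ring, PSMG1 was highest at 9.25 ± 1.73 and PSMG3 lowest at 1.5 ± 0.538. Levels of subunits that share a ring differed by more than the spread of the libraries. The 7 α genes with counts ran from 1.83 to 40.0, the 9 β genes from 0.651 to 17.7 and the 6 ATPase genes from 1.98 to 35.8 CPM per kb. Without PSMB9 and PSMB10, which replace other β subunits, the β genes ran from 8.39 to 17.7.

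**Figure D1:**
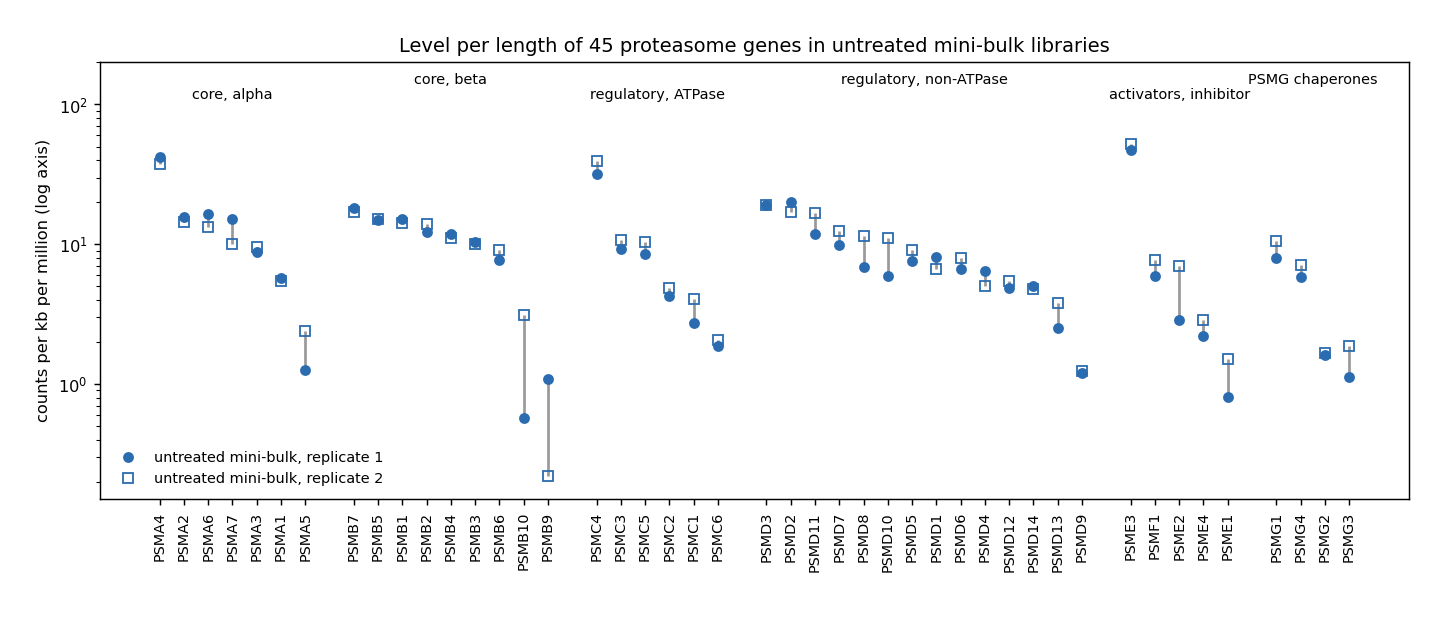
Level per length, in CPM per kb on a log axis, of the 45 members with counts in the 2 untreated mini-bulk libraries, grouped by role and sorted within each group. PSME3, PSMA4 and PSMC4 stand above 30 in both libraries, and PSMB9 and PSMB10 are the lowest β genes.

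In mini-bulk, most α genes fell while none of the β genes passed the test. DASHed and untreated libraries were compared with edgeR's quasi-likelihood test on TMM-scaled counts, at a Benjamini-Hochberg adjusted p of 0.05 over all 10083 genes tested. TMM sets 1 scaling factor per library so that most genes stay level. Of the 42 members tested, 15 fell and 2 rose in DASHed libraries. That is 35.7% and 4.76% of the members, beside 19.8% and 9.84% of all genes tested. The median log2 fold change was −0.30 over the members and 0.029 over all genes. These are differences in the share of a library. scDASH acts on molecules copied from RNA, so they are no measure of copies per cell or of cell number. The count depends on the scaling. By library totals alone, edgeR called 0 members as fallen (1 at an unadjusted p under 0.05) and 25 as risen, beside 1.42% and 66.4% of all genes, with a median of 1.70 beside 2.03 over all genes.

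In the α ring, 6 of the 7 genes tested fell. PSMA4 stood at 89.7 and 64.3 TMM-scaled CPM in untreated and at 12.2 and 8.62 in DASHed mini-bulk. Both DASHed libraries were far below both untreated ones, and the log2 fold change was −2.86 (SE 0.30, edgeR adjusted p = 0.0004). PSMA3 was at 17.9 and 15.5 CPM in untreated and 1.41 and 2.87 in DASHed libraries, a log2 fold change of −2.97 (SE 0.54, edgeR adjusted p = 0.0049). PSMA1 was at 19.4 and 14.9 against 5.18 and 1.15 CPM, and PSMA2 at 38.1 and 28 against 8.00 and 6.90 CPM. Their log2 fold changes were −2.36 and −2.13. PSMA6 changed by −1.98 and PSMA5, the last to pass, by −1.85 (edgeR adjusted p = 0.0497). PSMA1, PSMA2 and PSMA6 share exons or sequence with readthrough genes, so the split of their reads is uncertain. PSMA7 was the exception. It was at 31.8 and 16.8 CPM in untreated and 50.8 and 40.8 in DASHed libraries, which do not overlap, and its log2 fold change of 0.93 (SE 0.33) did not pass (edgeR adjusted p = 0.0592). Its call rests on the settings, since edgeR called PSMA7 as risen with relative log expression factors, without the filter on low counts, without rRNA, and without DASHed replicate 2 or untreated replicate 1.

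None of the 8 β genes tested passed in edgeR on the TMM scale, and DESeq2 called none. In edgeR PSMB3 was called as risen without rRNA and PSMB6 without DASHed replicate 2. By unadjusted p under 0.05, 1 was lower and 1 higher. Their log2 fold changes ran from −0.80 in PSMB1 to 0.95 (SE 0.78) in PSMB10, where the split of reads is uncertain. PSMB5, which carries the chymotrypsin-like site, stood at 33.6 and 27.3 CPM in untreated and 38.6 and 28.7 in DASHed libraries, so the groups overlap. PSMB7, with the trypsin-like site, overlapped too, at 40.4 and 30.1 against 40.5 and 25.9. PSMB6, with the caspase-like site, was at 14.9 and 14.0 in untreated and at 33.4 and 16.1 in DASHed libraries. Its log2 fold change of 0.79 (SE 0.40) gave an edgeR adjusted p of 0.159. The balance of the rings in the counts moved with these changes. Untreated mini-bulk held 1.11 and 1.29 β counts per α count and DASHed mini-bulk 3.51 and 3.34. PSMA7 alone made up 13.4% and 9.74% of the α counts in untreated and 56.0% and 62.3% in DASHed mini-bulk.

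**Figure D2:**
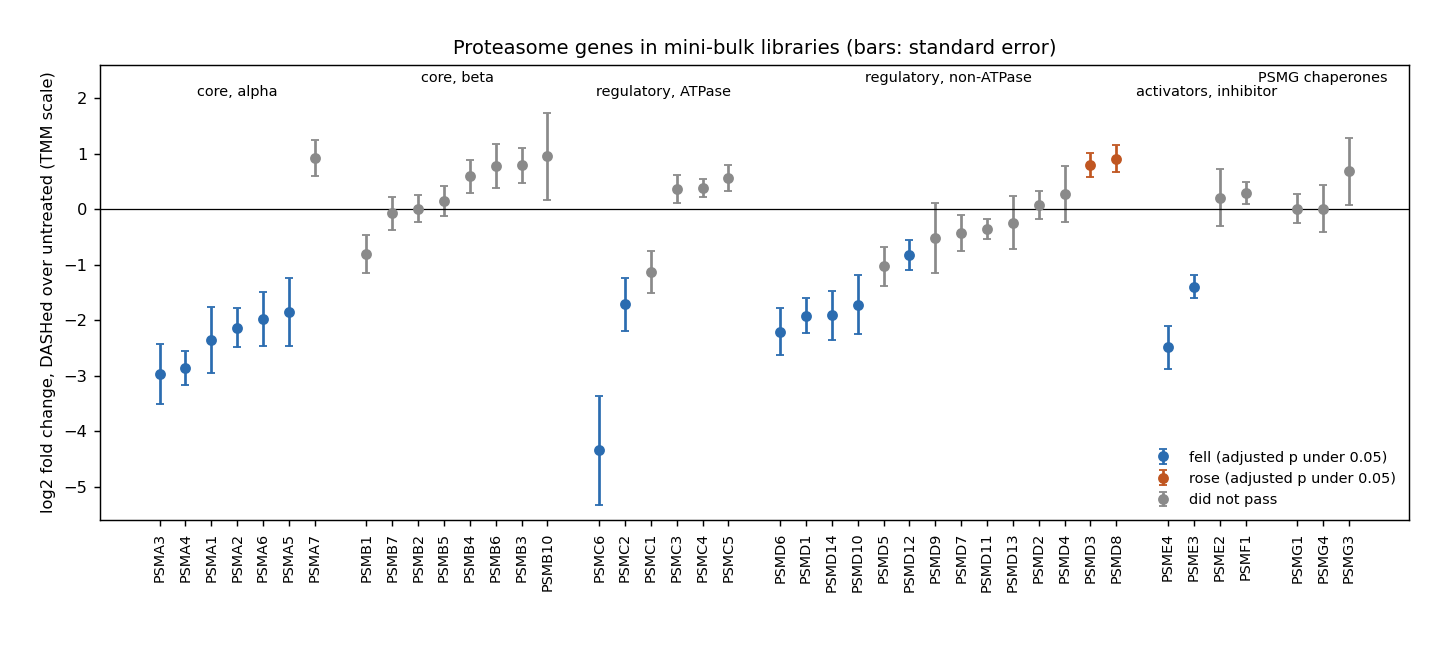
Log2 fold change of DASHed over untreated mini-bulk libraries, on the TMM scale, for the 42 members tested, grouped by role. Points are edgeR estimates, bars their standard errors and colours the call at an adjusted p of 0.05. The α genes other than PSMA7 lie below −1.5, and the β genes lie between −0.80 and 0.95.

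Of the ATPase genes, 2 of 6 fell and none rose in edgeR, although 2 were higher at an unadjusted edgeR p under 0.05. DESeq2 called none of the 6, and PSMC4 was called as risen in edgeR without DASHed replicate 1. PSMC6 had 18 and 19.1 estimated counts in untreated mini-bulk and 0 and 1 in DASHed mini-bulk. Its fitted log2 fold change was −4.35 (SE 0.99, edgeR adjusted p = 0.0118), but it rests on 1 DASHed count. The ratio of untreated to DASHed counts on the TMM scale was 24.3, with an exact 95% counting interval of 4.09 to 984. PSMC2 was at 25.4 and 23.0 CPM in untreated and 10.8 and 3.45 in DASHed libraries, a log2 fold change of −1.72. The most abundant ATPase gene, PSMC4, was at 105 and 104 against 129 and 145 CPM. Its log2 fold change of 0.39 (SE 0.16) did not pass (edgeR adjusted p = 0.107). PSMC3 was at 30.6 and 28.6 against 42.4 and 33.3 CPM, with a log2 fold change of 0.36 that did not pass either.

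Of the 14 PSMD genes, 5 fell and 2 rose. PSMD6, a subunit of the lid, was at 20.9 and 19.9 CPM in untreated and 4.71 and 4.02 in DASHed libraries, a log2 fold change of −2.20 (SE 0.42, edgeR adjusted p = 0.0059). PSMD1, a scaffold of the base, changed by −1.92, and PSMD14, the deubiquitinase of the lid, by −1.91. PSMD1 shares 10.8% of its exonic bases with HTR2B on the other strand. PSMD10, an assembly chaperone, changed by −1.72 and the lid gene PSMD12 by −0.82. The rising pair were PSMD3 and PSMD8, both lid subunits. PSMD3 stood at 93.1 and 73.9 CPM in untreated and 171 and 117 in DASHed libraries, a log2 fold change of 0.79 (SE 0.22, edgeR adjusted p = 0.0259). PSMD8 stood at 23.9 and 31.7 against 55.1 and 50 CPM, a log2 fold change of 0.91 (SE 0.24, edgeR adjusted p = 0.0227). PSMD9, at 6.35 and 5.28 against 5.65 and 2.3 CPM, and PSMD2, at 120 and 81.4 against 127 and 84.5 CPM, overlapped between groups.

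Among the 7 other members tested, PSME4 and PSME3 fell. PSME4, a large nuclear activator, was at 35.5 and 36.3 CPM in untreated and 8.47 and 4.02 in DASHed libraries, a log2 fold change of −2.48 (SE 0.39, edgeR adjusted p = 0.0025). PSME3 was at 326 and 291 against 142 and 91.4 CPM, a log2 fold change of −1.39 (SE 0.21, edgeR adjusted p = 0.0022). None of the 3 PSMG genes tested passed in edgeR, or had an unadjusted p under 0.05, and DESeq2 called none. PSMG1 differed least of these, at 27.7 and 28.9 CPM in untreated and 28.2 and 28.7 in DASHed libraries. PSMG3 had a log2 fold change of 0.68 (SE 0.60). PSMB9, PSME1 and PSMG2 had too few counts to be tested. PSME1 had 5 and 9 counts in untreated and 1 and 3 in DASHed mini-bulk, and PSMG2 had 10 and 10 against 4.41 and 2.

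Leaving out 1 mini-bulk library leaves 1 library in a group. The members' median log2 fold change then ran from −0.39 to −0.22, beside −0.24 to 0.099 over all genes. Without an untreated library far fewer genes were called as risen over all genes too, so lost rises are not particular to the members. PSMD12 lost its call without any 1 of the 4 libraries. Without either untreated library PSMA3, PSMA5 and PSMC6 were too low to be tested. PSMD14 did not pass without untreated replicate 1, PSMD10 without untreated replicate 2 or DASHed replicate 1, and PSMA5 and PSMC2 without DASHed replicate 2. PSMD3 did not pass as risen without DASHed replicate 1, where PSMC4 and PSMD8 rose. Neither rise passed without untreated replicate 1, where PSMA7 rose instead, and no member rose without untreated replicate 2, where 1 had an unadjusted p under 0.05. DESeq2 called 9 falls, all among the 15, and the same 2 rises, beside 12.1% and 8.96% of the genes to which it gave an adjusted p, and gave PSMC6 no adjusted p.

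Most GC-poor members fell, and members rich in GC did not. The 15 members that fell had a median GC content of 41.5% (37.8 to 49.1%), the 25 not called 51.8% (45 to 60.1%) and the 2 that rose 57.9%. Over the 42 members, Spearman's rho between GC content and the mini-bulk log2 fold change was 0.885, beside 0.792 over 10053 genes. With transcript length it was −0.19. These are descriptions across genes of the same 4 libraries, and genes are not replicates. Below 45% GC, 12 of 13 members fell, beside 53.1% of all genes in that band, and their median log2 fold change was −1.98 beside −1.66. From 45% to 50% GC, 3 of 11 members fell, beside 24.1% of all genes. At 50% or more, 0 of 18 members fell and 2 rose, beside 1.43% and 17.7% of all genes. The exception below 45% GC was the β gene PSMB2, just under that bound, at 95.3 and 87.0 CPM in untreated and 116 and 67.2 in DASHed libraries, with a log2 fold change of 0.014.

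**Figure D3:**
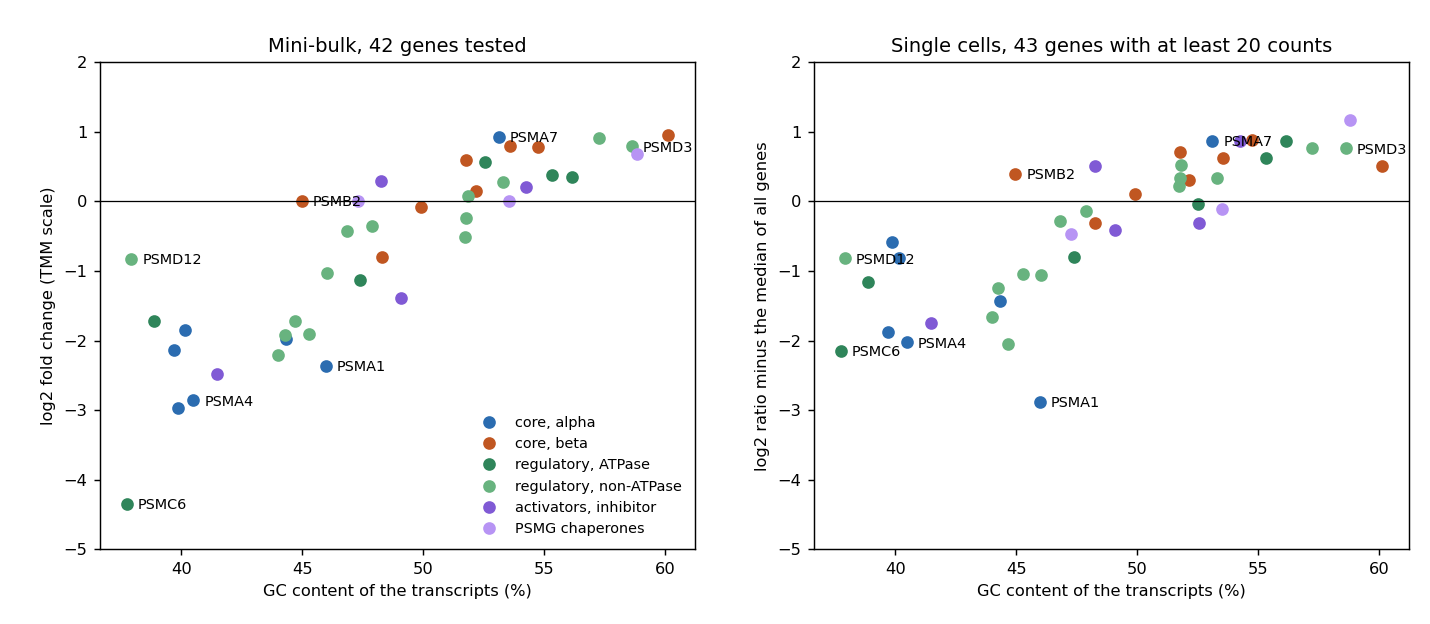
Log2 change of DASHed against untreated libraries, plotted against the median GC content of each gene's transcripts in percent, for 42 members in mini-bulk (left, TMM scale) and 43 in single cells (right, minus the median of all genes). Colours give the role. Changes rise with GC content in both panels, and PSMA7 (53.1% GC) lies apart from the other α genes, which are at 39.7 to 46.0% GC.

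A correction that subtracts from each library a smooth curve of all genes' deviations against GC content ended most calls. After it, 2 of 42 members fell and 1 rose, beside 2.29% and 1.47% of all genes tested. By unadjusted edgeR p under 0.05, 8 were lower, 3 of them α genes, and 5 higher. Spearman's rho between GC content and the corrected log2 fold change of the 42 members was still 0.433. The falls were PSMA4, with a log2 fold change of −1.26 (edgeR adjusted p = 0.0424), and PSME3, with −1.04 (edgeR adjusted p = 0.0146). The rise was PSMB2, with 1.03 (edgeR adjusted p = 0.0324). The other α genes that had fallen were then at −1.51 (PSMA1), −1.31 (PSMA3), −0.87 (PSMA6), −0.45 (PSMA2) and −0.24 (PSMA5), and none passed. PSMC6 was at −2.64, PSMD6 at −1.04 and PSME4 at −0.995, also without passing. PSMD12, which had fallen, was at 1.02 (edgeR adjusted p = 0.0758). PSMD3 and PSMD8, which had risen, were at 0.13 and 0.32. The median of the members was then −0.093.

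In single cells, 4 of 7 α genes and 0 of 8 β genes were more than 2-fold lower in DASHed libraries, relative to the median of all genes. Each cell is 1 library and no culture is named, so there is no test. Ratios of summed CPM (pseudocount 1 CPM) were set against the median of the 13509 genes with at least 20 counts, which was a 2.46-fold higher CPM in DASHed cells. The 43 members with at least 20 counts are described. Of these, 12 were more than 2-fold lower and 1 more than 2-fold higher than that median, or 27.9% and 2.33%, beside 26.9% and 10.4% of all genes. The members' median log2 ratio was −0.13. By role, beside the α and β genes, 2 of 6 ATPase, 5 of 14 PSMD and 1 of 5 activator and inhibitor genes were more than 2-fold lower. PSMG3 was the 1 gene that was higher.

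All 15 members that fell in mini-bulk had relative log2 ratios below 0 in single cells, 11 of them past 2-fold. These ratios are set against that median, and in CPM itself PSME3 was higher in DASHed cells, at 321, 373, 217 and 281 against 168, 207, 99.7 and 170.0 CPM. Spearman's rho between single-cell and mini-bulk changes was 0.916 over 42 members, beside 0.812 over 9450 genes. That with GC content was 0.860 over 43 members, beside 0.708 over 13475 genes. After the same kind of GC correction, 2 members were more than 2-fold lower and 1 higher, beside 13% and 8.08% of all genes, and the median was 0.057. The lower ones were PSMA1 at −2.3 and PSMD10 at −1.28, and the higher one was PSMB2 at 1.12.

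The lowest relative log2 ratios were those of PSMA1 (−2.88), PSMC6 (−2.15) and PSMD10 (−2.04). PSMA1 stood at 0.347, 0.361, 7.82 and 5.12 CPM in untreated cells 1 to 4 and at 0, 0, 3.90 and 0 in the DASHed cells of the same numbers. All of its 6 DASHed counts came from cell 3, and untreated cells relative to DASHed ones stood at 7.79 (95% counting interval 3.43 to 21.9). PSMC6 had 3 DASHed and 29 untreated counts, a relative ratio of 5.65 for untreated over DASHed cells (1.75 to 29). PSMD10 stood at 11.3, 9.81, 0 and 19.8 CPM in untreated and 8.30, 2.94, 0.65 and 12.1 in DASHed cells, so the groups overlap in CPM and cell 3 was lowest in both. Relative to the median gene of each pair it was lower in all 4 pairs, but pair 3 held 0 untreated counts and 1 DASHed count. Intervals cover counting error only. PSMA4 stood at 17.4, 16.4, 22.0 and 35.6 CPM in untreated and 9.81, 3.93, 20.8 and 20.3 in DASHed cells, a relative log2 ratio of −2.02.

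The highest relative log2 ratios were those of PSMG3 (1.17), PSMB6 (0.89) and PSMC3 (0.87). PSMG3 stood at 0.347, 2.28, 5.61 and 2.29 CPM in untreated and 0.754, 12.9, 37.1 and 12.4 in DASHed cells. It went the other way in pair 1 (−1.15) and it shares sequence with PSMG3-AS1. PSMB6 stood at 16.7, 30.7, 48.1 and 54.7 CPM in untreated and 66.4, 126, 232 and 262 in DASHed cells. On the CPM scale, where the median gene was 2.46-fold higher in DASHed cells, no DASHed cell was below an untreated one. PSMC3 stood at 46.5, 16, 42.4 and 13.8 against 241, 45.1, 189 and 64.2 CPM, and cell 2 in the DASHed group lay below cell 1 in the untreated group. Relative to the median gene of each pair, PSMB6 and PSMC3 were higher in all 4 pairs. PSMA7, at 32.1, 42.2, 39.9 and 31.4 against 193, 173, 172 and 123 CPM, had a relative log2 ratio of 0.87 and was higher in all 4 pairs. It made up 22.2 to 43.8% of the α counts in untreated and 55.5 to 80.9% in DASHed cells. β counts per α count were 1.49, 2.03, 2.11 and 2.35 in untreated and 2.28, 2.04, 3.21 and 5.11 in DASHed cells, so the groups overlap, while the DASHed value was the higher one in each same-numbered pair, by little in pair 2.

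Single subunits differed between cells, in the median by less than all genes did. The pattern often repeated in the DASHed and untreated libraries of a number, but the highest cell did so less often than over all genes. Over the 39 members with at least 100 counts, the median range between the 4 numbers (log2, mean of both groups) was 2.01, beside 3.59 over 8757 genes. The range exceeded the largest difference within a pair for 38 of 39 members, beside 97.1% of all genes, and PSMD1 was the exception. The same cell was highest in both groups for 24 members, or 61.5%, beside 80.2% of all genes. PSMA5 had the widest range, 4.64. It stood at 21.2, 0.18, 0.166 and 7.59 CPM in untreated and 31.7, 0, 0 and 9.53 in DASHed cells, so cells 2 and 3 had almost none in either group. PSMB5 (4.28) was low in cell 2 alone, at 36.1, 3.07, 41.1 and 57.5 against 111, 5.89, 123 and 180 CPM. PSMD2 (3.92) was low in cell 4 alone, at 44.8, 149, 85.9 and 8.12 against 194, 439, 356 and 30.5 CPM. PSMA7 had the narrowest range, 0.45. No cell was low for the whole complex. The cell with the lowest value was number 1 for 10 members, number 2 for 9, number 3 for 12 and number 4 for 8 in untreated libraries, and 12, 11, 9 and 7 in DASHed ones.

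**Figure D4:**
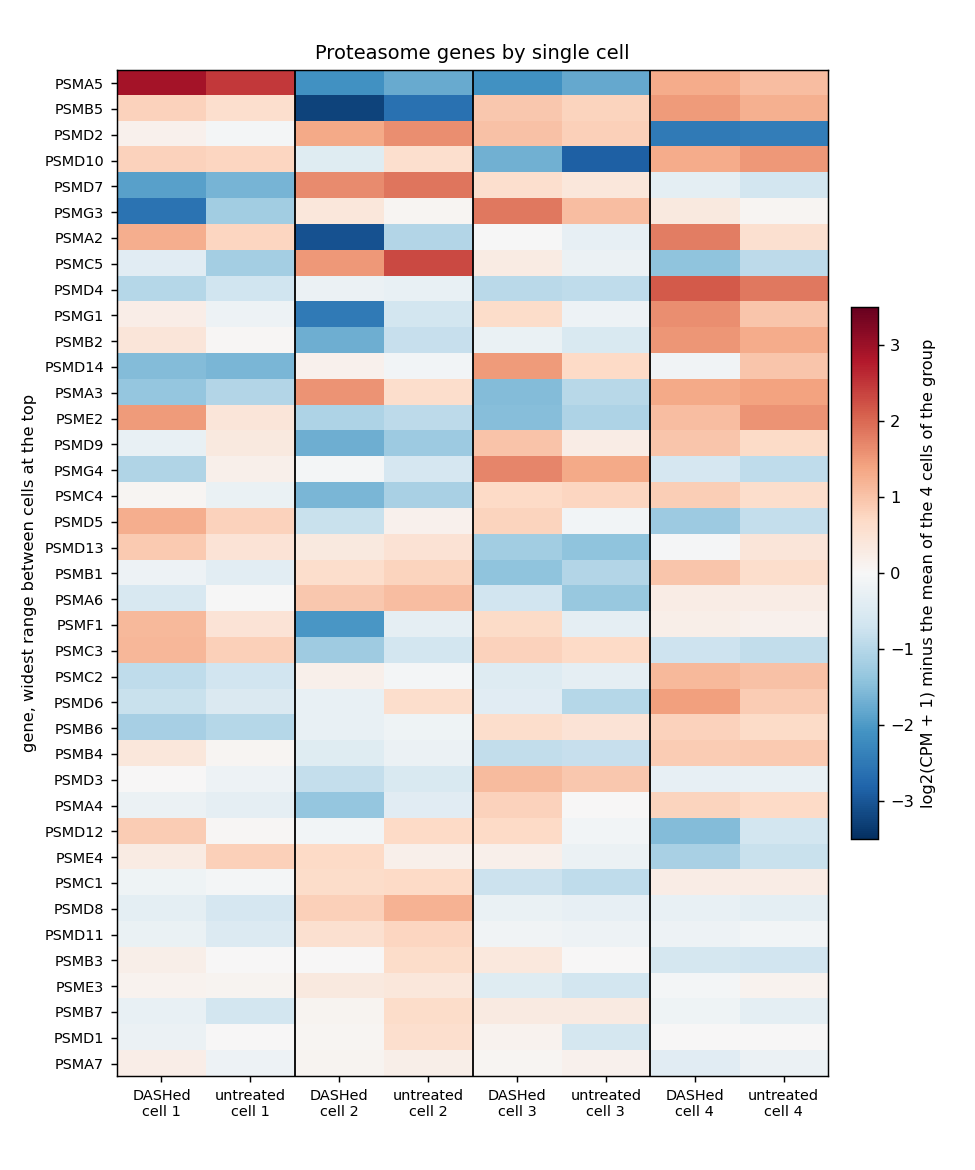
Each row is 1 of the 39 members with at least 100 counts and each column 1 single-cell library, with same-numbered DASHed and untreated libraries side by side. Colour is log2(CPM + 1) minus the mean of the 4 cells of the group. PSMA5 is low in cells 2 and 3, PSMB5 in cell 2 and PSMD2 in cell 4, in both groups.

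Proteasome genes took a larger share of DASHed than of untreated libraries. All members together took 0.0770% and 0.0848% of counts in untreated and 0.284% and 0.239% in DASHed mini-bulk, a ratio of means of 3.23. In single cells the means were 0.120% (0.101 to 0.147%) and 0.327% (0.3 to 0.357%), a ratio of 2.72. Neither pair of groups overlaps. By class, the mini-bulk ratio was 3.15 for the core, 3.95 for the regulatory particle and 2.16 for the others. Within the core it was 1.56 for the α and 4.49 for the β genes. Of the counts outside rRNA and the genes inside it, members took 0.509% ± 0.0478 in untreated and 0.441% ± 0.0772 in DASHed mini-bulk (SD, n = 2), which overlap, and the ratio was 0.866. On that scale it was 0.414 for the α genes, 1.20 for the β genes, 0.841 for the whole core, 1.06 for the regulatory particle and 0.580 for the others. The direction thus turned for all members, the core, the α genes and the others, although the groups overlap for the core too. In single cells the ratio over all members was 0.908. After thinning every mini-bulk library to 837450 counts, 42 and 45 members were detected in untreated and 44 and 44 in DASHed libraries. With at least 10 counts required, the numbers were 20 and 24 against 34 and 30. In single cells at equal depth, 40 to 42 members were detected in untreated and 40 to 43 in DASHed libraries.

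Single cells and mini-bulk of the same treatment were also compared, as ratios of summed CPM against the median of all genes, without a test. In DASHed libraries, 5 of 41 members with at least 20 counts were more than 2-fold higher in single cells and 4 more than 2-fold lower, beside 19.8% and 19.5% of all genes. In untreated libraries 6 of 44 were higher and 5 lower, beside 16.4% and 18.4% of all genes. PSMD8 was higher in single cells, by 1.56 in DASHed and 2.27 in untreated libraries (log2), as were PSMB6 (1.59 and 2.01) and PSMB1 (1.52 and 1.62). PSMF1, the inhibitor of the core, was lower, by −1.996 and −1.61, as was PSMG1, by −2.06 and −0.99. Of the 19 genes of the regulatory particle in the DASHed comparison, 2 were more than 2-fold higher in single cells and 0 more than 2-fold lower. In the untreated comparison 3 of 20 were higher and 1 lower. The lower one was PSMC6 (−1.58), which had too few counts for the DASHed comparison.

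Genes that work with the proteasome but carry no PSM symbol were taken from a list of 23, of which 22 could be tested in mini-bulk. Of these 5 fell and 5 rose, beside the 19.8% and 9.84% of all genes given above. The largest fall was that of POMP, which matures the core (34.3% GC), from 47.5 and 53.4 to 5.65 and 9.77 CPM, a log2 fold change of −2.73 (SE 0.33, edgeR adjusted p = 0.0008). The others that fell were ECPAS, which binds the assembled proteasome (−1.82), TXNL1, a redox protein of the regulatory particle (−1.40), UCHL5, a deubiquitinase of the regulatory particle (−1.36), and UBQLN1, a ubiquitin shuttle (−0.94). NFE2L1, the transcription factor of proteasome genes, rose from 157 and 137 to 289 and 259 CPM, a log2 fold change of 0.90. UBA1, the ubiquitin-activating enzyme (0.77), the ubiquitin gene UBB (0.71), ADRM1, a ubiquitin receptor (0.61), and the shuttle UBQLN4 (0.56) also rose. With the GC correction edgeR called none of the 22 as fallen, and 1 was lower at an unadjusted p under 0.05. UBE3C, RAD23B, UBQLN2 and UBB then passed as rising, so UBB rose both with and without it. In single cells 3 of the 23 were more than 2-fold lower and none more than 2-fold higher.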

How the data were processed

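The deposited table holds estimated counts, the authors' own values with no scaling for depth, for 1 column per library. Per the submitters' processing notes, kallisto 0.46.2 produced them. Its annotation, genome build and use of strand are not stated. Because kallisto splits ambiguous reads, 14 members are uncertain. They share at least 10% of exonic bases with other genes, or of 31-base words with other genes that have counts. Lengths, GC content, coordinates and coding sequence came from GENCODE v29 (GRCh38), matched by symbol.

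Counts were rounded and mini-bulk was tested with edgeR 4.0.16 in R 4.3.3 (quasi-likelihood, TMM, default filter on low counts, Benjamini-Hochberg at 0.05). DESeq2 1.42.0, other scalings, a replicate block, a GC correction and leaving out each library were alternatives. The edgeR script was tested on simulated data. Single-cell groups are 1 sample each and carry no test between groups, and exact 95% intervals there come from the counts. The GC correction of single cells and leaving out uncertain members were added after the data were seen.

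After each gene was centred on its group mean, same-numbered single cells of both groups correlated at 0.918 to 0.927 over 8747 genes, and differently numbered ones at −0.39 to −0.22. Same numbers were therefore treated as pairs, on this evidence only.

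The members and the lists were chosen with earlier results of these data known. Values per library are given for up to 4 members per class with the largest fold change past the threshold, the 2 highest and the lowest per length in each class, the inducible and tissue-specific subunits with PSMB5 to PSMB7, the 3 largest single-cell ratios each way and the 3 widest ranges between cells. Other members, such as PSMA7, PSMB2, PSMC2, PSMD8 and PSMD12, were named after their values were seen.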

Additional observations from a re-analysis of the deposited data

Results flagged for a closer look

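In 58 sets of 4 single cells, the highest and the lowest value were compared with the rest by Dixon's test, and 4 sets had a cell far from the other 3. For normally distributed values chance gives about 1 in 20, a rate that does not hold for sets with tied zeros. PSMA1 stood at 3.90 CPM in DASHed cell 3, from 6 counts, and at 0 in the other DASHed cells. Its statistic would be 1 for any nonzero value there, so it says nothing of the size. PSMD6 stood at 21.2 CPM in DASHed cell 4, against 3.77 to 5.89 in the others. PSMD3 stood at 161 CPM in untreated cell 3, against 57.7 to 73.5 in the others. Core genes took 0.0474% of the counts of untreated cell 4, against 0.0284 to 0.0309% in the other untreated cells.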

How the results depend on the processing

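The count of falls stayed within 1.5 times the main 15 with relative log expression factors (13), without a filter on low counts (13) and without rRNA (14). It was 0 by library totals alone, 9 with DESeq2, 2 with the GC correction and 5 with both the replicate block and the GC correction. Rises, 2 in the main analysis, numbered 25 by library totals alone, 4 without rRNA, 1 with the GC correction and 5 with the block and the GC correction. The labels do not say that mini-bulk numbers pair libraries. With a replicate block, 19 members fell and 8 rose, beside 30.2% and 23.4% of all genes. The added falls were PSMB1, PSMC1, PSMD5 and PSMD11, and the rises beside PSMD3 and PSMD8 were PSMA7, PSMB3, PSMB4, PSMB6, PSMC4 and PSMC5. With the block and the GC correction, beside 8.65% and 7.65% of all genes, PSMA1, PSMA4, PSMD1, PSME3 and PSME4 fell, and PSMA7, PSMB2, PSMF1, PSMG1 and PSMD12, which had fallen in the main analysis, rose. With 2 pairs the same-numbered deviations correlated at 0.51. The median log2 fold change of the members was 1.70 by library totals alone, −0.093 with the GC correction, −0.067 with the block and the GC correction, and −0.16 without uncertain members. By library totals alone PSMA5 was at 0.11, PSMB7 at 1.94, PSMD1 at 0.12, PSMD9 at 1.48, PSMD10 at 0.26, PSMD14 at 0.11 and PSME3 at 0.61. PSMB7 was at 0.017 without rRNA, 0.15 with the GC correction, 0.13 with the block and the GC correction, and 0.078 with DESeq2. PSMC3 and PSMC4 were at −0.16 and −0.055 with the GC correction, and at −0.16 and −0.057 with the block added. Without 1 library, log2 fold changes ran from −0.21 to 0.47 for PSMB5, −0.49 to 0.33 for PSMB7, −0.39 to 0.47 for PSMD2, −1.19 to 0.091 for PSMD9 and −0.17 to 0.15 for PSMG1. The cause of these shifts was not tested.

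In single cells, 4 members were more than 2-fold higher with a pseudocount of 5 CPM, 0 with at least 100 counts, 0 with the replicate block (mean of the pairs), and 1 to 6 without 1 library. Over all genes the numbers were 1794 of 13509, 184 of 8757, 323 of 13509, and 1734 to 2942 of 12651 to 13357. Few genes of any kind were thus higher in the settings where 0 members were. The members' median was −0.45 with at least 100 counts, −0.36 with the replicate block, −0.67 against the genes nearest in expression, 0.057 with the GC correction, 0.26 with the block and the GC correction, and −0.25 to 0.16 without 1 library. With the replicate block the median over all genes was −0.62, so the members lay above it there. It was 0 with at least 100 counts and against the genes nearest in expression. With the GC correction 2 members were more than 2-fold lower, beside 1751 of 13475 genes, and 2 with the block as well, beside 1302 of 13475. Against mini-bulk, 2 members were lower in DASHed single cells with at least 100 counts, and 4 to 7 without 1 library, and in untreated cells 4 to 8 without 1 library. Over all genes the numbers were 862 of 6393, 1899 to 2395 of 10155 to 10591, and 2357 to 2873 of 13221 to 13429. With counts outside rRNA as denominator, the ratio of shares was 0.866 in mini-bulk and 0.908 in single cells. At equal depth and at least 10 counts, 22 members on average were detected in untreated mini-bulk. Depth limits low members such as PSMC6 and PSMB9, and precision rests on 2 libraries per mini-bulk group.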
